A study of Homo sapiens with 24 samples.

Results

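The expression profiles described here are those of 4 Hodgkin lymphoma (HL) cell lines before exposure to a drug, and the comparison asks which genes already differed between lines that later die under AEZS-136 and lines that do not. They come from the vehicle arrays of the series, 12 of 24, with 3 arrays for each line. The sensitive class consists of L-540 and SUP-HD1, which undergo cell death under AEZS-136, and the resistant class of KM-H2 and L-428. In the remaining 12 arrays the same lines were exposed for 24 hours to 10 μM AEZS-136, which inhibits both PI3K and ERK, and the vehicle arrays are the 24-hour controls. All 4 lines were cultured in the same medium. A class holds 2 cell lines, so sensitivity cannot be told apart from any other property that the 2 lines happen to share. The labels number the arrays of a line as replicates and do not say that they came from separate cultures, so p-values over arrays measure the spread between these arrays, which may be technical.

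HL cell lines derive from Hodgkin and Reed-Sternberg cells, malignant lymphocytes that have lost most of their B cell program and that live on NF-kB and JAK/STAT signaling, cytokines and chemokines. PI3K and ERK relay growth signals from receptors at the membrane to translation, lipid synthesis, glucose uptake and the cell cycle. The cell death that AEZS-136 is studied for is necroptosis, a regulated necrosis driven by the kinase RIPK3 and the membrane-disrupting protein MLKL.

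A total of 17976 of 47323 probes were detected on at least 3 of the 12 vehicle arrays (detection value above 0.99) and were tested. They cover 10697 genes, and each gene is represented by its tested probe with the highest mean signal. The exceptions are marker probes, which were examined as chosen. Signals are given as quantile-normalized log2 intensities, and the level of a probe can be set against the same probe in another line but not against another probe. Between 29.6% and 33.1% of all probes were detected on an array. Across probes, correlations were 0.991 to 0.996 between arrays of 1 line and 0.870 to 0.905 between arrays of different lines. The pairs of lines within a class (r = 0.886 to 0.895 for L-540 and SUP-HD1, 0.886 to 0.890 for KM-H2 and L-428) were inside the range of the pairs between classes. The identity of the lines was checked on defining markers. FSCN1 (fascin), TRAF1, EBI3 and IRF4 of the HL markers were detected on all 12 arrays, CCL17 and CD40 on none of the L-540 arrays and on all others, and the brightest probe of TNFRSF8 (CD30) on the 3 L-540 arrays only. PAX5 and the T cell genes LCK and CD3E were detected on none, and none of the 8 epithelial markers was detected in any line. CD3G was detected on 2 KM-H2 arrays only, and the B cell gene MS4A1 on 1 SUP-HD1 and 1 L-428 array only. The remaining T and B cell markers with a probe were detected on all arrays of at least 1 line. The T cell gene GATA3 was on all 12 arrays, CD2 on all sensitive arrays only and CD3D on all KM-H2 arrays only. The B cell gene CD79A was on all sensitive, 1 KM-H2 and 2 L-428 arrays, and CD79B on 1 KM-H2 and all L-428 arrays. The arrays measure RNA pooled over a culture, in which fewer expressing cells and less RNA per cell cannot be told apart.

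A probe was counted as different between the classes only when each of the 4 differences between a sensitive and a resistant line passed in the same direction, at an adjusted p under 0.05 in limma and a log2 difference of at least 0.4. Under this criterion 927 probes (5.16% of those tested) separated the sensitive from the resistant lines. In both sensitive lines 459 (2.55%) were higher and 468 (2.6%) were lower. Median scaling in place of quantile normalization turned this near-even split into 639 higher and 359 lower, a share of 64% higher against 49.5%. The other 2 ways of pairing the lines separated similar numbers of probes. KM-H2 with L-540 against L-428 with SUP-HD1 gave 960 probes (5.34%), of which 394 (2.19%) were higher and 566 (3.15%) lower in KM-H2 and L-540, and KM-H2 with SUP-HD1 against L-428 with L-540 gave 860 (4.78%), of which 434 (2.41%) were higher and 426 (2.37%) lower in KM-H2 and SUP-HD1. The division by sensitivity accounted for 34.0% of the variation between the lines, and the other pairings for 32.5% and 33.4%. The number of differences shared by both lines of a class thus lay between those of the other pairings.

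**Figure D1:**
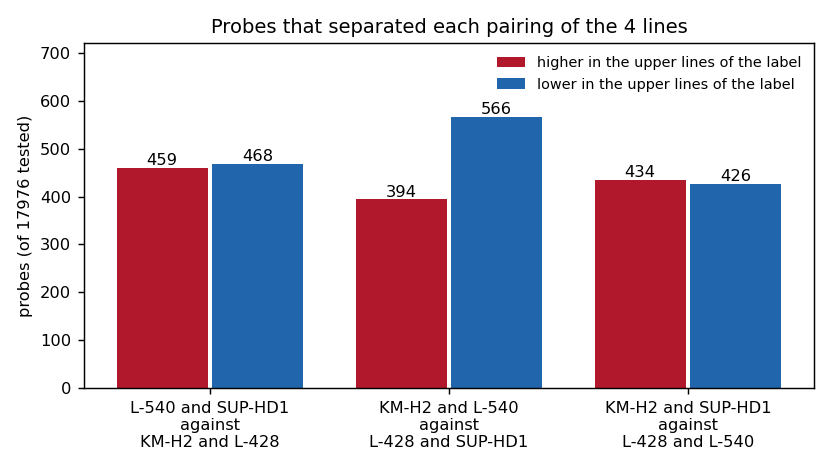
Number of probes (y axis) that passed in all 4 line pairs for each of the 3 ways to divide the 4 lines into 2 pairs (x axis), with red bars for probes higher and blue bars for probes lower in the upper lines of the label. The sensitive lines against the resistant lines gave 459 and 468 probes, within the range of the other pairings (394 to 566).

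By gene, 330 (3.08% of 10697) were higher and 327 (3.06%) were lower in both sensitive lines. The other pairings gave 278 (2.6%) and 407 (3.8%) genes for KM-H2 with L-540, and 269 (2.51%) and 326 (3.05%) for KM-H2 with SUP-HD1. Of the 657 genes called between the classes, 208 had several tested probes, and at 67 of these every probe gave the same call. Opposite calls occurred at 0 genes, and 41 further genes were called only by a probe that did not represent them. The median class difference, the mean of L-540 and SUP-HD1 minus the mean of KM-H2 and L-428, was 0.97 on the log2 scale over the higher probes and -1.05 over the lower ones, changes of 1.96-fold and 2.07-fold. All 4 line pairs differed by at least 1 on the log2 scale at 83 of the higher and 96 of the lower probes. The resistant lines were undetected on all 6 arrays at 57 of the higher probes, and the sensitive lines at 91 of the lower probes. All 6 sensitive arrays lay above all 6 resistant arrays at 6.44% of the probes and below them at 5.8%. L-540 differed from KM-H2 at 38.5% and from L-428 at 34.7% of the probes, and SUP-HD1 from KM-H2 at 37.9% and from L-428 at 33%. Lines of the same class differed as often, at 36.5% between L-540 and SUP-HD1 and 36.4% between KM-H2 and L-428. The contrast of the class means, which does not ask each line to differ, gave 4841 probes (26.9%), 13.4% higher and 13.6% lower, and 15.9% of the genes in each direction. When each line was taken as 1 sample, 2 against 2, limma gave 0 probes, with a smallest adjusted p of 0.379 and 908 probes (5.05%) at an unadjusted p under 0.05. An exact test over the lines cannot give a p below 0.333.

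Among the genes higher in both sensitive lines, HOPX, which encodes a small homeodomain protein that acts as a transcriptional cofactor, had the widest separation. Its log2 signal was 12.27, 11.71 and 12.12 on the L-540 arrays and 11.81, 11.80 and 12.12 on the SUP-HD1 arrays, against 7.19, 7.01 and 7.18 in KM-H2 and 6.80, 6.93 and 6.78 in L-428. The classes lay 4.99 apart (SE 0.08, adjusted p = 1.12e-18), a 31.7-fold difference, and L-428 was not detected at all. RCAN2, a regulator of the phosphatase calcineurin, had 9.96, 10.04 and 10.11 in L-540 and 9.90, 9.95 and 9.82 in SUP-HD1, against 6.67, 6.47 and 6.66 in KM-H2 and 6.48, 6.56 and 6.64 in L-428. No resistant array was above background for RCAN2, so that the difference is given as at least 8.14-fold (adjusted p = 1.12e-18). A bound of this kind sets the mean of the bright class against the lowest signals detected on the arrays of the dim class. TUBB3, a neuronal isotype of beta-tubulin, was detected in all 4 lines and was 9.89-fold higher in the sensitive lines. Its log2 signals were 11.03 to 11.19 in L-540 and 10.94 to 11.48 in SUP-HD1, against 8.09 to 8.31 in KM-H2 and 7.54 to 7.59 in L-428.

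CDKN1A, the gene of the cyclin-dependent kinase inhibitor p21, was 11-fold higher in the sensitive lines (log2 difference 3.47, SE 0.06, adjusted p = 5.26e-18). It had 11.74, 11.86 and 11.93 in L-540 and 11.79, 11.74 and 11.83 in SUP-HD1, against 9.20 ± 0.21 (SD, n = 3) in KM-H2 and 7.45, 7.50 and 7.55 in L-428. The sensitive lines were alike, whereas the resistant lines differed from each other. PLIN2, which coats lipid droplets, was 11.2-fold higher, and PPARG, a nuclear receptor for fatty acids, was at least 6.02-fold higher and above background on no resistant array (log2 means 9.68 ± 0.12 in L-540 and 9.37 ± 0.14 in SUP-HD1, against 6.65 ± 0.12 in KM-H2 and 6.80 ± 0.09 in L-428, SD, n = 3 each). FBXO32, a ubiquitin ligase subunit known as atrogin-1, had 11.22 ± 0.06 and 10.83 ± 0.01 in L-540 and SUP-HD1, against 7.59 ± 0.03 and 8.33 ± 0.10 in KM-H2 and L-428, an 8.34-fold difference. ENPP2 (autotaxin, which makes lysophosphatidic acid) was 8.70-fold and PLAAT4 (an acyltransferase) 12.5-fold higher. GADD45G, a stress sensor, was at least 4.70-fold higher, with no resistant array above background. The list of the 15 widest separations was completed by IL2RA, CD163L1, COL6A5, GBP2 and PPP2R2B, of which IL2RA and GBP2 are described with their pathways. For COL6A5 only 2 of 5 tested probes and for PPP2R2B 2 of 3 passed in all line pairs.

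**Figure D2:**
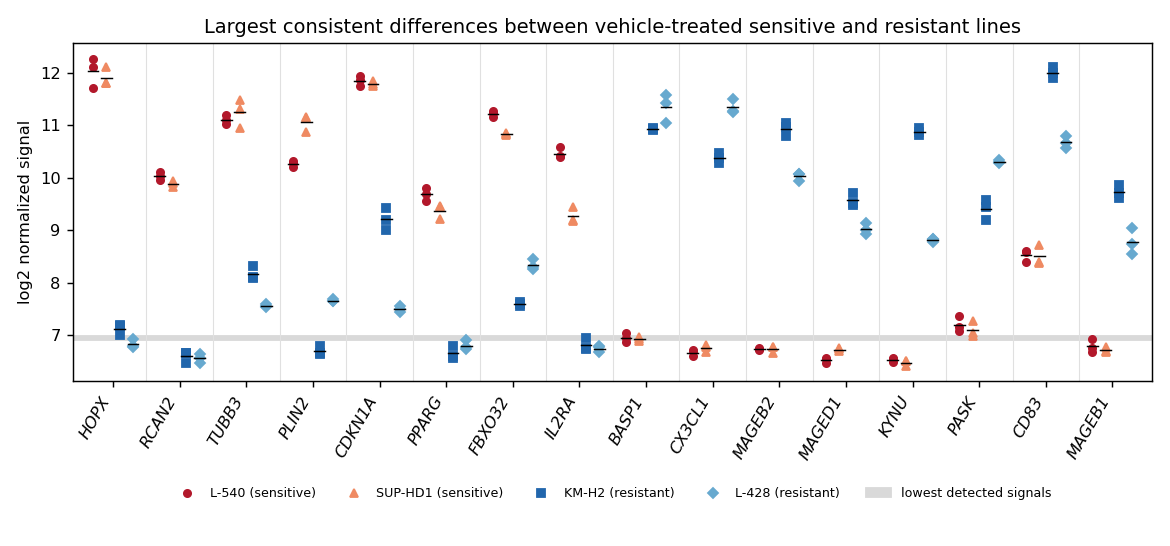
Quantile-normalized log2 signal (y axis) of the 8 genes with the widest separation in each direction (x axis) on the 12 vehicle arrays, with 1 point per array, the mean of each line as a bar, and the range of the lowest detected signals as a grey band. The sensitive lines (red) and the resistant lines (blue) did not overlap at any of the 16 genes, and CX3CL1, for example, lay at 6.60 to 6.81 in the sensitive lines and at 10.28 to 11.51 in the resistant lines.

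BASP1, which encodes a membrane-bound signaling protein of axons and other cells, had the widest separation among the genes lower in the sensitive lines. Its log2 signals were 6.96, 7.03 and 6.87 in L-540 and 6.88, 6.92 and 6.96 in SUP-HD1, against 10.90, 10.96 and 10.94 in KM-H2 and 11.43, 11.58 and 11.05 in L-428. The sensitive arrays were at the edge of detection (3 of 6 above background), and the class difference was -4.20 (SE 0.07, adjusted p = 1.54e-18). KYNU (kynureninase, an enzyme of tryptophan breakdown) was at least 7.43-fold lower in the sensitive lines, where no array was above background. Its signals were 6.41 to 6.57 on the sensitive arrays, and the resistant lines differed from each other, with 10.81 to 10.94 in KM-H2 and 8.78 to 8.84 in L-428. PASK (a PAS domain kinase) was 6.50-fold lower and PDK3 (a pyruvate dehydrogenase kinase) 4.56-fold lower, and both were detected on all arrays. MFGE8, which bridges phagocytes to phosphatidylserine on dying cells, was 6.43-fold lower. The remaining genes of the 15 were PARM1, JSRP1, PRAC1, PDGFRL and RIPOR1, with differences between at least 3.88-fold for PDGFRL and at least 6.93-fold for PRAC1.

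Genes of the MAGE family, which encode tumor antigens normally restricted to germ cells together with some broadly expressed relatives, stood at 3 of the 15 places and were counted after these values were seen. MAGEB2 had 6.66 to 6.78 on the 6 sensitive arrays, against 10.80 to 11.05 in KM-H2 and 9.94 to 10.08 in L-428. It was at least 11.5-fold lower in the sensitive lines. MAGED1 was at least 5.07-fold and MAGEB1 at least 4.91-fold lower, also with no sensitive array above background. Of 19 MAGE genes tested, 4 were lower and 0 were higher in both sensitive lines, beside 3.06% and 3.08% of all genes, the fourth being MAGEE1 at 1 of 2 tested probes. The other 3 are the genes that prompted the count, and they passed the detection filter only through the resistant lines. The count was therefore raised in advance and does not show a difference of the family. The others included several that were high in KM-H2 alone. MAGEA4, for example, had 6.55 to 6.83 on the sensitive arrays, against 12.43 to 12.46 in KM-H2 and 6.60 to 6.70 in L-428.

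Sterol and fatty acid synthesis, which supplies membranes with cholesterol and lipids, had the largest share of genes lower in the sensitive lines among 30 lists of pathways and cell types. Of 23 tested genes 9 were lower and 1 was higher in both sensitive lines (39.1% and 4.35%, beside 3.06% and 3.08% of all genes), and the median class difference was -0.77 on the log2 scale, beside 0.01 over all genes. The other pairings of the lines separated 0 and 3 genes of this list. HMGCS1, the enzyme that commits acetyl units to the mevalonate pathway, had log2 signals of 8.84, 8.80 and 8.73 in L-540 and 8.43, 8.36 and 8.64 in SUP-HD1, against 11.75, 11.84 and 11.94 in KM-H2 and 10.52, 10.50 and 10.50 in L-428. This is a 5.82-fold difference (log2 -2.54, SE 0.06, adjusted p = 3.48e-17). SQLE, squalene epoxidase, had 8.08 ± 0.08 (SD, n = 3) in L-540 and 8.76, 8.79 and 8.61 in SUP-HD1, against 11.19, 11.03 and 11.37 in KM-H2 and 10.16, 10.42 and 10.44 in L-428. It was 5.16-fold lower, and in both genes every resistant array was above every sensitive one, with KM-H2 the highest line.

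FADS1, a desaturase of polyunsaturated fatty acids, was at least 3.51-fold lower, and none of its 6 sensitive arrays was above background. LSS, which closes the sterol ring, had 7.62 ± 0.02 in L-540 and 7.57 ± 0.09 in SUP-HD1, against 8.51 ± 0.09 in KM-H2 and 8.76 ± 0.09 in L-428 (SD, n = 3 each). SCD, the stearoyl-CoA desaturase, had 10.14 ± 0.12 and 10.69 ± 0.22 in the sensitive lines, against 11.38 ± 0.06 and 11.83 ± 0.04 in the resistant lines. ELOVL6 (fatty acid elongation), MSMO1, SC5D and NSDHL (late steps of cholesterol synthesis) completed the 9, with class differences of -1.15, -1.11, -0.96 and -0.91. For MSMO1, 1 of 3 tested probes passed in all line pairs. PMVK, phosphomevalonate kinase, ran the other way and was 1.63-fold higher. INSIG1, which retains the sterol sensor in the endoplasmic reticulum, had a class difference of -1.24 and missed the criterion because L-540 and L-428 were only 0.32 apart. FASN (fatty acid synthase) had -0.83 and missed it through L-540 and KM-H2. SREBF1 and SREBF2, the transcription factors that drive the pathway, had class differences of 0.26 and 0.06 and did not pass. SREBF2 was above background on 5 of 12 arrays.

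**Figure D3:**
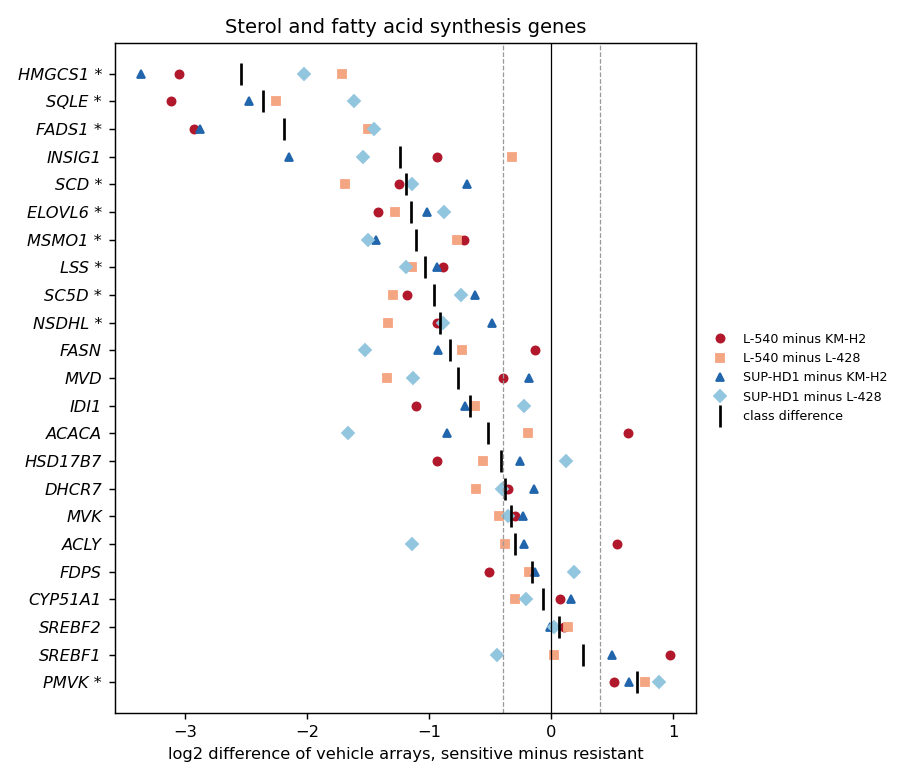
Log2 difference of vehicle arrays, sensitive minus resistant (x axis), for the 23 tested genes of sterol and fatty acid synthesis (y axis), with 1 colored symbol per line pair, the class difference as a black tick, and dashed lines at 0.4 in each direction. Asterisks mark genes that passed in all 4 line pairs, from HMGCS1 at -2.54 to NSDHL at -0.91, and PMVK at 0.70.

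The promoters of the called sterol genes are of interest because sterol-responsive promoters carry sterol regulatory elements next to CCAAT boxes, which NF-Y binds. A RefSeq promoter window (GRCh38.p14, 250 bases before to 50 after the start of the gene) was given for 9 of the 10 called genes. The core TCACNCCAC, searched on both strands, was in 0 of these 9 and in 1.13% of all 35116 windows. The CCAAT box, searched as ATTGG on both strands, was in at least 1 window of 6 of the 9 genes and in 34.6% of all windows. MSMO1 (chr4:165327419-165327718, plus strand) and NSDHL (chrX:152830813-152831112, plus strand) held the most, with 4 and 5 matches. They are printed 5′ to 3′ with the CCAAT boxes of either strand in capitals, and 2 of the matches in NSDHL overlap.
MSMO1: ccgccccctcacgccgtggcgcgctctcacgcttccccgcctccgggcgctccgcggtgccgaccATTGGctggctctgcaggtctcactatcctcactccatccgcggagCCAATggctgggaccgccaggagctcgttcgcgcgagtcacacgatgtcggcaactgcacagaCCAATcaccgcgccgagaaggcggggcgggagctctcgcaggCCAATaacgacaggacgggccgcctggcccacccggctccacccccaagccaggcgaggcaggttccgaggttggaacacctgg
NSDHL: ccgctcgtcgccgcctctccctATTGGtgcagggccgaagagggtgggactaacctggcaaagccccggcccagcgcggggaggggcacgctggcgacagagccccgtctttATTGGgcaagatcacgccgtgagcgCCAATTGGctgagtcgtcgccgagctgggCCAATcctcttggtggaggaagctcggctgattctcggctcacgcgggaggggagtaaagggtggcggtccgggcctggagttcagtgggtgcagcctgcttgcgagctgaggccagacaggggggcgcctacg
The matches describe the sequence of these windows and were not tested for binding.

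MHC class II genes encode molecules that present peptides to CD4 T cells, and their list also holds the invariant chain and the factors that bind class II promoters. Of its 16 tested genes 5 were lower and 0 were higher in both sensitive lines (31.25% lower, beside 3.06% of all genes), and the other 11 did not pass. The median class difference was -0.71, and the other pairings separated 1 and 0 genes. HLA-DQB1, the beta chain of the DQ heterodimer, had 8.18, 8.26 and 8.32 in L-540 and 6.83, 6.82 and 6.70 in SUP-HD1, against 9.16, 9.08 and 9.27 in KM-H2 and 10.43, 10.29 and 10.64 in L-428. SUP-HD1 was below detection, and the difference was 4.90-fold (log2 -2.29, SE 0.06, adjusted p = 4.9e-16). HLA-DMB, a chain of the DM chaperone that loads peptides, had 9.46, 9.40 and 9.62 in L-540 and 9.11, 9.07 and 9.05 in SUP-HD1, against 10.32, 10.25 and 10.21 in KM-H2 and 10.44, 10.44 and 10.38 in L-428, a 2.08-fold difference. The probes annotated to HLA-DRB3, HLA-DRB4 and HLA-DRB6 were 2.72-fold, 2.39-fold and 2.06-fold lower. These DRB genes are near-identical copies and highly polymorphic, so which of them a probe reads is uncertain. Their calls may share signal, so the 5 lower genes and the share of 31.25% may count 1 difference more than once. For HLA-DRB4 1 of 3 and for HLA-DRB6 1 of 2 tested probes passed. HLA-DRA, the alpha chain of DR, had a class difference of -0.81 at 1 probe, which passed, and of -0.77 at its brighter probe, which did not, since SUP-HD1 and KM-H2 were only 0.33 apart there.

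The chaperone CD74, the invariant chain, did not follow the class II genes. Its log2 signal was 11.96 to 12.32 in L-540 and 12.62 to 12.98 in SUP-HD1, against 12.02 to 12.23 in KM-H2 and 12.77 to 12.99 in L-428. The class difference of -0.02 (SE 0.08, adjusted p = 0.815) changed sign under median scaling (0.10). CIITA, the master activator of class II genes, had a class difference of -0.32, and RFX5, RFXANK and RFXAP, which bind class II promoters, had 0.26, 0.08 and -0.07, none of them different in all line pairs. A RefSeq promoter window was given for 2 of the called class II genes, HLA-DQB1 and HLA-DMB. The Y box, the class II form of the NF-Y site, was searched as CTGATTGG on both strands. It had 1 match in the window of HLA-DQB1 and 0 in that of HLA-DMB, and was present in 3.97% of all windows. The HLA-DQB1 window (chr6:32666608-32666907, GRCh38.p14, minus strand) is printed 5′ to 3′ with the Y box in capitals.
HLA-DQB1: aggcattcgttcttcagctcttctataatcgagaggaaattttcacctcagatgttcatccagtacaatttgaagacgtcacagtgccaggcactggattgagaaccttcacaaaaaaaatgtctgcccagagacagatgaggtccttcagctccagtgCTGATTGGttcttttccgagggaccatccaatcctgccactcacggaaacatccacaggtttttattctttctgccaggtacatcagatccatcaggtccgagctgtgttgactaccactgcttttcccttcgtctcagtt

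The metallothionein genes MT2A and MT1X, which encode small cysteine-rich proteins that bind zinc and copper, were higher in the sensitive lines. They were 2 of the 5 tested genes of this list, which includes the activator MTF1, and 0 were lower. The share over all genes was 3.08% higher, and the other pairings separated 0. MT2A had 11.11, 11.25 and 11.38 in L-540 and 12.92, 12.54 and 12.58 in SUP-HD1, against 9.35, 9.68 and 9.58 in KM-H2 and 10.02, 9.99 and 9.06 in L-428. The difference was 5.11-fold (log2 2.35, SE 0.13, adjusted p = 1.37e-11), and L-428 replicate 3 was below the other L-428 arrays. MT1X had 10.35, 10.37 and 10.73 in L-540 and 10.40, 10.02 and 10.55 in SUP-HD1, against 9.01, 8.99 and 9.12 in KM-H2 and 8.88, 8.94 and 8.21 in L-428, a 2.92-fold difference. The same L-428 array was the lowest. The sensitive and resistant arrays did not overlap in either gene. MTF1, the zinc-sensing factor that binds metal response elements, had a class difference of 0.55 and did not pass in all line pairs. MT1G and MT1E had class differences of 0.32 and -0.04, did not pass either, and were close to background.

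The promoters of MT2A (chr16:56608334-56608633, plus strand) and MT1X (chr16:56682220-56682519, plus strand) are shown because both genes were higher in the sensitive lines. Matches to the core of the metal response element are marked in the sequence. The core was searched on both strands as TGCGCNC, with at least 1 match in 20% of all windows, and as TGCACNC, with at least 1 match in 12.1%. MT2A held 8 matches and MT1X held 4, printed in capitals in the 300-base RefSeq windows (GRCh38.p14), 5′ to 3′.
MT2A: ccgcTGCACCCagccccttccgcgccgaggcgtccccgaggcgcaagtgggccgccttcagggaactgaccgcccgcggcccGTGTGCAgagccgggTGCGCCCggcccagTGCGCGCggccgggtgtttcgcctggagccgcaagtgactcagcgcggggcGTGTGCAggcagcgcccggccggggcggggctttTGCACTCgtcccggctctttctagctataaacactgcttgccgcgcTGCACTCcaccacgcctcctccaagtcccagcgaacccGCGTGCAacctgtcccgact
MT1X: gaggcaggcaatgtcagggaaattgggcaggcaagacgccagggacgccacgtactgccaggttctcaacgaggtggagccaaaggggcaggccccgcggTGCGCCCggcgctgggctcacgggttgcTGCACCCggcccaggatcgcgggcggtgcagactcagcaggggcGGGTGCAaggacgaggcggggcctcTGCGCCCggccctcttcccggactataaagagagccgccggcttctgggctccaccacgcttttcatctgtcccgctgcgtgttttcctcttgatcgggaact
Binding at these positions was not measured.

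Of the interleukin-2 receptor genes, IL2RB and IL2RA were higher in the sensitive lines, while IL2RG, the common gamma chain, had a class difference of -0.18 and did not pass. IL2RB, the signaling beta chain, had 12.41, 12.09 and 12.37 in L-540 and 11.59, 11.93 and 11.73 in SUP-HD1, against 9.04, 9.19 and 9.51 in KM-H2 and 9.67, 9.51 and 9.77 in L-428, a 5.93-fold difference (log2 2.57, SE 0.08, adjusted p = 7.06e-15). IL2RA (CD25, the alpha chain) had 10.41, 10.39 and 10.58 in L-540 and 9.44, 9.20 and 9.17 in SUP-HD1, and no array of KM-H2 or L-428 was above background. It was at least 7.61-fold higher at this probe, while the second IL2RA probe did not pass. These were the 2 genes higher (7.69%) among 26 tested receptors and checkpoint ligands, with CD44 lower (3.85%), beside 3.08% and 3.06% of all genes. Of 22 tested JAK/STAT genes 3 were higher and 0 lower (13.6% and 0%, beside 3.08% and 3.06% of all genes). PIM1, a serine/threonine kinase, had 10.42, 10.43 and 10.44 in L-540 and 9.79, 9.40 and 9.25 in SUP-HD1, against 8.12, 8.12 and 8.07 in KM-H2 and 8.21, 8.20 and 8.16 in L-428. It was 3.50-fold higher. Its relative PIM2 was 3.08-fold higher, and the feedback inhibitor SOCS3 was at least 1.5-fold higher, with no resistant array above background. SOCS1, CISH and SOCS2 of the same list had class differences of 0.79, 0.92 and -0.47 and did not pass. JAK1, JAK2 and STAT3 had class differences of 0.17, 0.25 and 0.25, and STAT4 and STAT5A of -1.33 and -1.12, none of which held in all line pairs.

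Of 16 tested chemokine and cytokine genes of HL cells, 3 were lower (18.75%, beside 3.06% of all genes) and 0 higher in both sensitive lines, and the median class difference was -0.58. CX3CL1 (fractalkine) had 6.69, 6.60 and 6.72 in L-540 and 6.78, 6.67 and 6.81 in SUP-HD1, against 10.47, 10.28 and 10.38 in KM-H2 and 11.25, 11.27 and 11.51 in L-428. It was at least 14.99-fold lower in the sensitive lines, where it was not above background (adjusted p = 3.3e-19). CCL5 (RANTES) had 10.70, 10.68 and 10.83 in L-540 and 9.93, 9.53 and 9.74 in SUP-HD1, against 12.52, 12.40 and 12.51 in KM-H2 and 12.42, 12.38 and 12.62 in L-428. It was 4.72-fold lower. TNF was 3.46-fold lower, with 7.81 ± 0.02 in L-540 and 9.12 ± 0.03 in SUP-HD1, against 10.32 ± 0.08 in KM-H2 and 10.19 ± 0.16 in L-428 (SD, n = 3 each).

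Of 30 tested genes of the NF-kB pathway and its survival targets 3 were lower and 1 was higher (10% and 3.33%, beside 3.06% and 3.08% of all genes). CD83, an activation marker of B cells and dendritic cells, had 8.59, 8.60 and 8.39 in L-540 and 8.40, 8.71 and 8.38 in SUP-HD1, against 11.90 to 12.11 in KM-H2 and 10.57, 10.80 and 10.67 in L-428, a 7.09-fold difference. EBI3, a subunit of interleukin-27 and interleukin-35, was 5.40-fold lower, and the kinase IKBKE was 1.78-fold lower. CD70, the ligand of CD27, was 2.02-fold higher. By the contrast of class means alone, 14 genes of this list were lower and 5 higher, a contrast that called 15.9% of all genes in each direction. The summed linear signal of the 7 HL markers was 3370 to 12554 on the sensitive arrays and 12820 to 30382 on the resistant arrays. These ranges nearly met, and they do not show a difference shared by both lines of a class. FSCN1, the brightest of these markers, was nearly equal between KM-H2 (log2 mean 12.94) and SUP-HD1 (12.92). It was highest for L-428 (14.13) and lowest for L-540 (10.99). The part of the summed signal in the chemokine and NF-kB values was not tested. These markers are not independent of the lists beside which they stand, since FSCN1, EBI3, IRF4, TRAF1 and CD40 are also in the NF-kB list and CCL17 in the chemokine list.

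**Figure D4:**
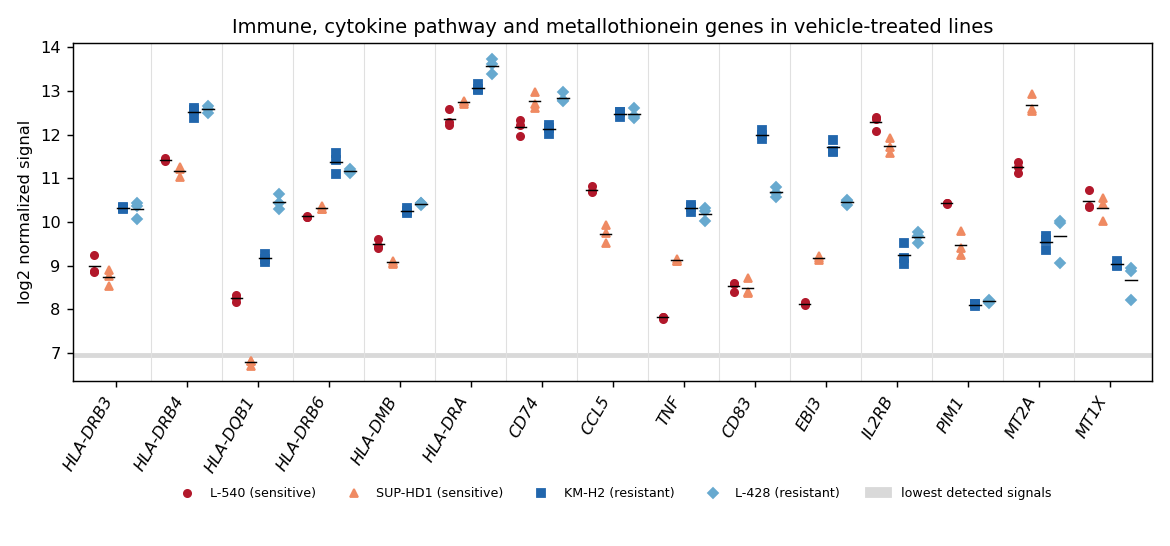
Quantile-normalized log2 signal (y axis) of MHC class II, chemokine, NF-kB, cytokine pathway and metallothionein genes (x axis) on the 12 vehicle arrays, with 1 point per array, the mean of each line as a bar, and the lowest detected signals as a grey band. CD74 overlapped between the classes, HLA-DRA is drawn at its brighter probe, and at MT2A the sensitive arrays lay at 11.11 to 12.92 and the resistant arrays at 9.06 to 10.02.

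Interferon-stimulated genes did not move as a group. Of 43 tested, 4 were higher and 1 was lower in both sensitive lines (9.30% and 2.33%, beside 3.08% and 3.06% of all genes). The median class difference was 0.08, and the pairing of KM-H2 with SUP-HD1 gave 9 genes lower. The 4 higher genes were GBP2, an interferon-induced GTPase (10.55 ± 0.07 in L-540 and 10.45 ± 0.03 in SUP-HD1, against 7.52 ± 0.12 in KM-H2 and 8.10 ± 0.02 in L-428, 6.45-fold), the ADP-ribosyltransferases PARP9 (4.02-fold) and PARP14 (2.32-fold), and the exonuclease ISG20 (3.78-fold). XAF1, an antagonist of XIAP, was 1.87-fold lower at 1 of 2 tested probes. Of 20 tested genes of MHC class I and antigen processing, HLA-C was the single one to pass (5%, beside 3.08% of all genes higher). It was 3.45-fold higher with L-428 below detection. B2M, the light chain of class I, was low in L-428 alone. At its marker probe it had 12.79 to 12.97 in L-540 and 13.39 to 13.67 in SUP-HD1, against 12.58 to 12.97 in KM-H2 and 10.89 to 11.16 in L-428, so that its class difference of 1.26 rested on 1 line. The brighter B2M probe had means of 13.65 in L-540 and 14.19 in SUP-HD1, against 13.54 in KM-H2 and 11.38 in L-428. Its class difference was 1.46, and it did not pass in all line pairs.

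In the pathways that AEZS-136 inhibits, 2 of 28 tested genes of PI3K, AKT and mTOR signaling were higher and 0 lower (7.14% and 0%), and of 37 tested genes of RAS, RAF, MEK and ERK signaling 1 was higher and 2 were lower (2.70% and 5.41%), beside 3.08% and 3.06% of all genes. In the first list, FOXO1, a transcription factor restrained by AKT, was 1.58-fold higher, and RPS6KB2, an S6 kinase, was 2.33-fold higher at 1 of 2 tested probes. In the second, the small GTPase RRAS was 1.91-fold higher and its relative RRAS2 2.31-fold lower. RPS6KA2, a ribosomal S6 kinase downstream of ERK, was at least 1.31-fold lower. MAPK3 (ERK1) had a class difference of -0.05 (SE 0.07, adjusted p = 0.507), which changed sign under median scaling (0.09). It had 9.56 to 9.69 in L-540 and 9.20 to 9.62 in SUP-HD1, against 9.14 to 9.21 in KM-H2 and 9.89 to 10.07 in L-428. In the stress kinase pathways, 2 of 28 tested genes were lower in the sensitive lines and 0 higher (7.14% and 0%, beside 3.06% and 3.08% of all genes). MAP3K5 (ASK1, which is activated by oxidants) had 6.93 ± 0.15 in L-540 and 6.85 ± 0.03 in SUP-HD1, against 7.80 ± 0.11 in KM-H2 and 9.03 ± 0.12 in L-428. MAPK13 (p38 delta) was 2.92-fold lower.

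Of 24 tested genes of death receptors, necroptosis and caspases, 1 was higher and 1 lower in both sensitive lines. This was 4.17% in each direction, near the 3.08% and 3.06% of all genes. MLKL, the executioner of necroptosis, had 8.33, 8.57 and 8.34 in L-540 and 8.43, 8.08 and 8.32 in SUP-HD1, against 10.35, 10.29 and 10.25 in KM-H2 and 9.14, 9.26 and 9.36 in L-428. It was therefore lower in the lines that die, by 2.70-fold (log2 -1.43, SE 0.07, adjusted p = 1.24e-12). TNFRSF1B, a receptor for TNF, had 9.56, 9.26 and 9.68 in L-540 and 7.87, 7.75 and 7.79 in SUP-HD1, was at least 3.28-fold higher, and was above background on no resistant array. RIPK3, which phosphorylates MLKL, was above background on the 3 L-540 arrays alone (7.11 to 7.25) and did not separate the classes. None of 14 tested genes of the BCL2 family passed, and for BCL2 (class difference 1.17) and BCL2L1 (-1.18) the smallest line pair differed by 0.16 and 0.10. BCL2A1 was above background on 0 of 12 arrays at the probe examined.

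IER3, a survival gene induced by stress and growth factors, did not separate the classes before treatment. It had 11.13, 11.13 and 10.91 in L-540 and 7.92, 7.86 and 7.86 in SUP-HD1, against 8.67, 8.67 and 8.80 in KM-H2 and 8.58, 8.42 and 8.47 in L-428. L-540 was the highest and SUP-HD1 the lowest of the 4 lines, and the resistant lines lay between them.

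Of 37 tested antioxidant genes 3 were lower and 1 was higher (8.11% and 2.70%, beside 3.06% and 3.08% of all genes). GSTM2, a glutathione S-transferase, was at least 4.74-fold lower, with no sensitive array above background, against 10.18 ± 0.17 in KM-H2 and 8.22 ± 0.08 in L-428. GSTM1 was 4.18-fold lower at 1 of 3 tested probes, and since the GSTM genes are near-identical copies the 2 results may share signal. ATP5IF1, the inhibitor of the mitochondrial ATP synthase, was 1.79-fold lower at 1 of 2 probes. FTL, the ferritin light chain that stores iron, was 2.40-fold higher, with 14.11 ± 0.13 in L-540 and 14.33 ± 0.05 in SUP-HD1, against 13.26 ± 0.16 in KM-H2 and 12.65 ± 0.03 in L-428. Of 4 tested genes of NADPH oxidase, none passed.

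Glycolysis and hypoxia genes were divided, with 3 of 27 higher and 2 lower (11.1% and 7.41%, beside 3.08% and 3.06% of all genes). The glucose transporter SLC2A3 (GLUT3) was 3.31-fold higher, with 11.01 ± 0.17 in L-540 and 10.75 ± 0.12 in SUP-HD1, against 8.89 ± 0.01 in KM-H2 and 9.43 ± 0.16 in L-428. NDRG1 and the regulatory enzyme PFKFB3 were 1.76-fold and 1.47-fold higher, whereas the glycolytic enzymes PFKP and PGK1 were 5.80-fold and 1.66-fold lower. PFKP was undetected in L-540, and its smallest line pair, SUP-HD1 and KM-H2, differed by 0.62. Among 33 adhesion and cytoskeletal genes, 3 were higher and 3 were lower (9.09% in each direction, beside the same shares of all genes). ANXA2, a calcium-dependent membrane linker, had 12.45, 12.42 and 12.44 in L-540 and 12.49, 12.74 and 12.52 in SUP-HD1, against 10.69, 10.70 and 10.63 in KM-H2 and 9.85, 9.86 and 9.99 in L-428, a 4.67-fold difference, and CD99 was 2.59-fold and ICAM2 1.85-fold higher. ACTN1, an actin crosslinker, was 4.77-fold lower, CD44 3.11-fold lower and VCAM1 at least 2.58-fold lower.

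The remaining lists are given beside the same shares over all genes, 3.08% higher and 3.06% lower. Of 40 tested cell cycle genes, CDKN1A was higher and CDK4, the kinase that it restrains, was 1.76-fold lower (2.5% in each direction). LAMP1 and CTSZ were higher and LGMN and LAMP2 lower among 17 lysosomal genes (11.8% in each direction). CTSH, a lysosomal protease, was undetected in L-540 (6.63 to 6.76) and had 9.05 to 9.35 in SUP-HD1, against 9.73 to 9.89 in KM-H2 and 7.45 to 7.59 in L-428. It did not separate the classes. HDAC3 was 1.61-fold higher and CBX2 2.11-fold lower among 20 histone deacetylase and polycomb genes (5% in each direction). No gene passed among 24 genes of ATF4 and the stress response, 6 drug efflux transporters, 7 plasma cell markers and 9 monocyte and macrophage markers. In the lineage lists, EBF1, a B cell transcription factor, was 1.86-fold higher and CD24 at least 2.94-fold lower among 20 B lineage genes. CD2, a T cell adhesion molecule, was at least 1.95-fold higher among 16 T lineage genes, whose median class difference was 0.42, with 8.33 to 8.52 in L-540, 7.27 to 7.45 in SUP-HD1 and no resistant array above background. The T cell receptor gene CD3D, in contrast, was above background in KM-H2 only. The summed signal of the T lineage list was 9237 to 11855 on the sensitive arrays and 8041 to 8909 on the resistant arrays, and its part in the CD2 value was not tested. Of 97 called genes of the lists, the MAGE family and the widest separations, IKBKE, CD70, CTSZ, CDK4, CBX2, RRAS, HDAC3 and NSDHL lost their call under at least 1 alternative treatment of the vehicle arrays.

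The same criterion was applied to the 12 arrays of the lines exposed to AEZS-136, which share no sample with the vehicle arrays. These arrays come from the same 4 lines, so probes that pass again do not add a line to either class. There 499 probes (2.78%) were higher and 554 (3.08%) were lower in both sensitive lines. Of the higher probes 293 passed in both sets (63.8% of those on the vehicle arrays, 58.7% of those with AEZS-136), and of the lower probes 305 (65.2% and 55.1%). No probe passed in opposite directions. All 15 genes of each list of widest separations passed again with AEZS-136. Of the 97 called genes examined, 24 did not pass with AEZS-136. By gene, 3.37% were higher and 3.51% lower in both sensitive lines with AEZS-136. Of the sterol genes 5 were lower with AEZS-136 against 9 with vehicle, and 0 against 1 were higher, LSS, SCD, MSMO1, NSDHL and PMVK being those that no longer passed. Of the MHC class II list 7 genes were lower with AEZS-136 against 5 with vehicle, and 1 against 0 was higher. The higher one was RFXANK, with a class difference of 0.55 with AEZS-136 and 0.08 with vehicle. MT2A and MT1X did not pass with AEZS-136, nor did any other gene of their list. The class difference of MT2A was 0.90 with AEZS-136 and 2.35 with vehicle, and that of SCD was -0.20 and -1.19.

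**Figure D5:**
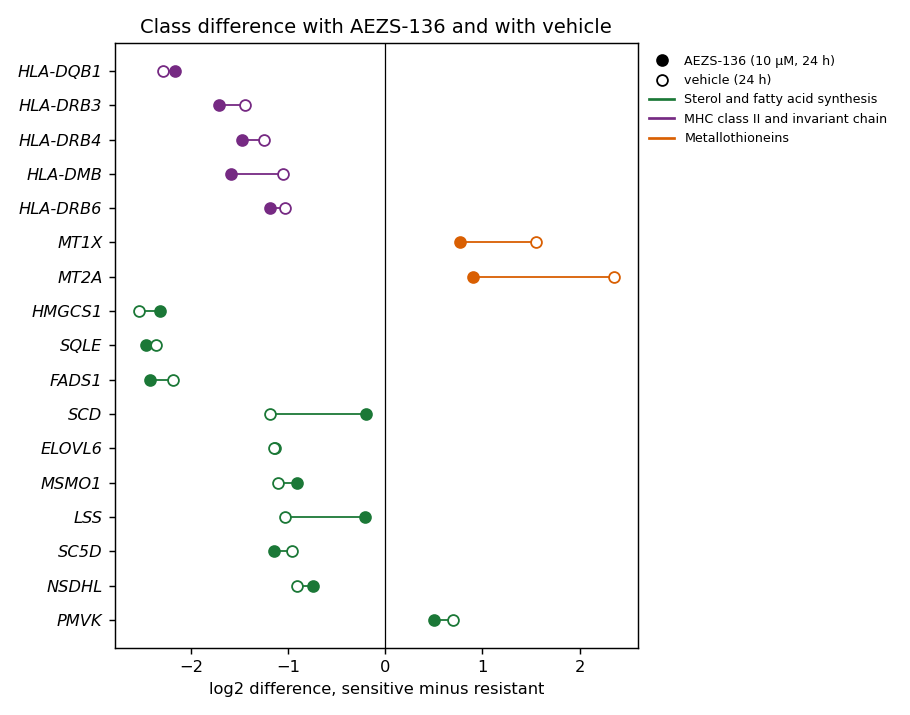
Class difference, sensitive minus resistant, on the log2 scale (x axis) with AEZS-136 (filled circles) and with vehicle (open circles) for the 17 called sterol, MHC class II and metallothionein genes (y axis), each set of 12 arrays normalized on its own. LSS and SCD lay near 0 with AEZS-136 (-0.21 and -0.20), whereas HMGCS1 stayed at -2.32 and SQLE at -2.47.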

How the data were processed

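RNA of 4 HL cell lines was hybridized to Illumina arrays, and the 12 vehicle arrays were analysed, with the 12 AEZS-136 arrays as a comparison. Each array's line, treatment and replicate number come from the labels, and the vehicle, dose and classes of lines from the study's methods. The authors deposited linear signal intensity per probe without normalization between arrays, and beside it a detection value, a fraction that approaches 1 as probes get brighter. BeadStudio is named in the submitters' processing notes, and its version is not given in the sources used, nor is the chip. A deposited value table of log2 signals, with centring not stated and medians of 6.79 to 6.80 per array, was used as an alternative and matched each array's own signals (r of at least 0.998). All columns matched a sample.

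Signals were log2-transformed without background correction, which understates differences of dim probes, and quantile-normalized over the 12 arrays. The 4 line means were fitted with limma 3.58.1 in R 4.3.3 (8 residual and 9.78 prior degrees of freedom, median SE of a line difference 0.08). P-values were adjusted by Benjamini-Hochberg over 17976 probes, and adjusted p-values are limma's. The thresholds are those of the study's methods. Platform annotation gave 14048 tested probes 1 gene symbol, 2 several and 3926 none. In simulated arrays the criterion over all line pairs recovered 67.2% of 67 probes with a simulated log2 change of 0.5, 97% with a change of 1 and 100% with a change of 2. The simulation gave both lines of a class the same mean. These shares therefore do not cover differences between lines of a class, which were called at 36.5% and 36.4% of the probes.

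The comparison, the 30 gene lists and the marker genes were chosen with earlier results of these data known. Named genes were the marker probes, IER3 and MAPK3, the 15 widest separations in each direction (by the smallest line pair), up to 4 called genes of each list, and up to 3 defining genes of a list with none. MAGE genes and further list members were named after their values were seen. The count of arrays limits the precision. Neither batch nor chip position is given by the labels or the table. Replicate numbers did not pair the arrays. Alternatives covered normalization, background correction, filter, replicate block, minimum fold change, the value table, the methods' t-test, line means as samples, the AEZS-136 arrays and leaving out each array. Figures were drawn with matplotlib 3.10.9.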

Additional observations from a re-analysis of the deposited data

Results flagged for a closer look

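At 5 of the 17 called sterol, MHC class II and metallothionein genes, the class difference with AEZS-136 was not the same as with vehicle, by a test of the difference itself in a limma fit of all 24 arrays (adjusted p under 0.05, minimum log2 change 0.4). These genes were picked by their vehicle values, which the test uses again, so a smaller difference with AEZS-136 was favored in advance. The share of all probes that pass this test is not given, so the count cannot be called particular to these genes. The difference with AEZS-136 minus that with vehicle was -1.43 (SE 0.20, adjusted p = 1.24e-05) at MT2A and -0.70 (SE 0.18, adjusted p = 0.00638) at MT1X, where the excess in the sensitive lines was smaller with AEZS-136. It was 0.97 (SE 0.11, adjusted p = 3.74e-07) at SCD and 0.81 (SE 0.08, adjusted p = 4.86e-08) at LSS, where the deficit was smaller with AEZS-136. At HLA-DMB it was -0.61 (SE 0.08, adjusted p = 2.37e-06), and the deficit was larger with AEZS-136. HLA-DRB3 had an adjusted p of 0.0136 and a change of -0.36, under the minimum.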

How the results depend on the processing

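On the vehicle arrays, 8 to 12 sterol genes and 5 to 7 MHC class II genes were lower in both sensitive lines under the alternatives that give calls for all line pairs, which leaves out the methods' t-test and the line means. With the AEZS-136 arrays these counts were 5 and 7. Without a minimum fold change 1930 probes separated the classes (984 higher and 946 lower), the class contrast gave 11001 (5595 higher and 5406 lower), and the other pairings gave 1984 and 1945. After normexp background correction these counts were 1722 (877 and 845), 8651 (4361 and 4290), 1739 and 1710. The class contrast gave 2144 probes by the methods' t-test (3129 without the minimum fold change) and 0 with line means as samples. Median scaling shared 87.9% of the 927 probes, and cyclic loess, the joint fit of 24 arrays, normexp, both filters, no minimum fold change and the value table shared at least 94.3%. The AEZS-136 arrays shared 63.8% of the higher and 65.2% of the lower probes. Median scaling gave 60.4% of the contrast's probes as higher, against 49.6%. Leaving out each array in turn gave 923 to 941 probes (458 to 480 higher, 459 to 472 lower), 4779 to 4892 in the contrast, 928 to 995 and 842 to 888 in the other pairings, 9 to 10 sterol genes and 5 to 5 MHC class II genes.

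With the replicate number as a block, 927 probes were called, all of them shared. Arrays with the same number did not deviate together (r of -0.16 to 0.05), and 2 of 12 correlated best with their own number. Of 2352 comparisons of 112 named probes with an alternative, 2329 kept the direction and the side of the threshold, 14 lost and 2 gained the call, and 7 changed sign. The sign changes were those of CD74, with a class difference of 0.0999 under median scaling and of -0.0778 to 0.0328 when single arrays were left out, and of MAPK3, with 0.0931 under median scaling and -0.101 to 0.00576 when single arrays were left out. On the vehicle arrays the named probes that lost their call were those of IKBKE, CDK4, CBX2, RRAS, HDAC3, CTSZ and CD70, whose smallest line pairs were between 0.41 and 0.48, and among further called list members NSDHL lost its call under median scaling. Leaving out 1 array ended the call of CTSZ (L-540 replicate 1), CDK4 (SUP-HD1 replicate 2), CD70 (KM-H2 replicate 2), and of both RRAS and HDAC3 (SUP-HD1 replicate 3 or L-428 replicate 3). The cause of the changed values was not tested. Signal over background limits the dim probes, for which one class gives a bound only.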
